A study of Mus musculus with 99 samples.

Results

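The genes described here encode the precursors of 10 neuropeptides that are not opioids: Tac1 (substance P and neurokinin A), Cartpt (the CART peptides), Crh (corticotropin-releasing hormone), Nts (neurotensin), Cck (cholecystokinin), Npy (neuropeptide Y), Gal (galanin), Trh (thyrotropin-releasing hormone), Vgf (a granule protein cut into several peptides) and Adcyap1 (PACAP). They were taken by name and not by a threshold on measured values, and all 10 were found among the 55335 Ensembl genes of the count tables. The study asked how exposure to fentanyl before and after birth bears on transcription in reward and sensory areas of each sex. RNA of tissue punches from juvenile mice was sequenced. The punches came from the nucleus accumbens (NAc), from prelimbic cortex (PrL) and primary somatosensory cortex (S1), from ventrobasal thalamus (VBT) and from the midbrain ventral tegmental area (VTA). All animals carry the genotype label Wildtype. In the fentanyl groups, pregnant C57BL/6 dams drank fentanyl, a potent opioid agonist, at 10 µg/ml from embryonic day 0 until weaning, and the water groups are the controls without the drug. The pups were thus exposed through the dam, and neither the dose that reached a pup nor the litters are given. Region, sex and treatment form 20 groups, of which 19 have 5 libraries and 1, S1 of water males, has 4.

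Neuropeptides are made as precursor proteins that convertases cut inside dense-core granules, and many are amidated before release. They leave the neuron mostly during sustained firing and act on G protein-coupled receptors of nearby or distant cells. Each precursor is made by particular kinds of neuron: Tac1 by the striatal projection neurons that carry the D1 dopamine receptor, Npy by cortical and striatal interneurons, Cck by pyramidal neurons, thalamic neurons and some dopamine neurons, Cartpt by the Edinger-Westphal nucleus beside the VTA and by accumbal neurons. Several of these genes are textbook targets of cAMP signalling through the cAMP response element (CRE).

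The promoters show a feature that the choice of genes did not use. RefSeq promoter sequences (GRCm38.p6), spanning 250 bases before to 50 bases after the start of the gene, were matched for 8 of the 10 precursors, with 9 promoters since Adcyap1 has 2; Crh and Vgf were not matched. The CRE core CGTCA, on either strand, was found in 7 of these 8, in all but Npy, and in 23.05% of all 27025 genes with a promoter of the same length. The whole palindrome TGACGTCA, which contains the core on both strands, was found only in Cartpt among the 8 and in 2.03% of all genes. The E-box CACGTG was found in Tac1 and Cck and in 8.09% of all genes. The windows below hold the core in capitals, written CGTCA or, on the opposite strand, TGACG; they are shown because the core is the shared letter pattern, and a match describes letters and not binding.
Tac1: gctctacaggctCGTCAcgcctgagataa
Trh: ccccggctctgcCGTCAgcgcccctgcat
Cck: cctgctggactgCGTCAgcactgggtaaa
Nts: attagggaagatCGTCActttccatcaag
Cartpt: ggcgggcattgaCGTCAaacggcagcgga
Adcyap1: ggactaggatgcTGACGtcttttactgat
Gal: gcgctgagccggTGACGcggcagctccca
The windows lie at chr6:7555006-7555034 for Tac1 (plus strand), chr6:92244730-92244758 for Trh (minus strand), chr9:121495725-121495753 for Cck (minus strand), chr10:102490568-102490596 for Nts (minus strand) and chr13:99900776-99900804 for Cartpt (minus strand). Those of Adcyap1 and Gal lie at chr17:93198914-93198942 (plus strand) and chr19:3414509-3414537 (minus strand). Counted from the start that RefSeq gives for each promoter, the core lies upstream in 6 of the 7, and in Gal it lies 20 bases after the start. In GENCODE the genes Tac1 and Cartpt start further upstream, at position 7554879 and, on the minus strand, 99901091, so their windows lie within those gene spans.

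Of the 99 libraries, 98 were used, with 23032078 to 52069639 counts assigned to genes. VTA male water 3 was left out because only 6333 genes had a count there, against 24079 to 27347 in the others; 9 of the 10 precursors were at 0 counts in it, and Vgf was at 75.6 CPM (counts of a gene per 1000000 counts assigned to genes). The punches of VTA, VBT and NAc carried the markers of their labelled regions: the summed CPM of 7 dopamine neuron markers was 442 to 2184 in VTA and at most 75.7 elsewhere, that of 7 thalamic markers was 1083 to 3318 in VBT and at most 865 elsewhere, and that of 8 striatal projection neuron markers was 1585 to 5139 in NAc and at most 1030 elsewhere. The sum of 7 cortical pyramidal neuron markers was 1534 to 2436 in PrL and 1536 to 2011 in S1. It reached 1495 in NAc, close to the cortex, and 636 in VBT. No list was chosen to tell PrL from S1. Marker sums of neighbouring tissue varied widely between libraries of a region. These are bulk punches, in which fewer cells of a type and less RNA per cell cannot be told apart.

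The 5 regions differed in which precursors they held. In water libraries, by CPM per kilobase of exon, which allows genes to be compared, Cck led in PrL at 184 ± 35.1 (SD, n = 10), Npy stood at 68.1 ± 6.91 in S1 (n = 9), Tac1 stood at 60.1 ± 17.9 in NAc (n = 10) and Cartpt at 48.9 ± 52.1 in VTA (n = 9). Vgf had a similar level everywhere, with 50.2 to 69.8 CPM per kilobase as the mean of a region. Crh, Gal and Trh were low, with at most 4.25, 1.71 and 13.9 CPM per kilobase in their highest region. The ratio of the highest to the lowest regional mean in water was 119 for Cartpt, 88.5 for Nts, 51.3 for Trh, 46.6 for Adcyap1, 36.9 for Tac1, 32.6 for Crh, 28.0 for Npy, 7.69 for Cck and 1.39 for Vgf. No ratio is given for Gal, whose mean in S1 is under the limit of detection. The plot of levels by region shows every library.

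**Figure D1:**
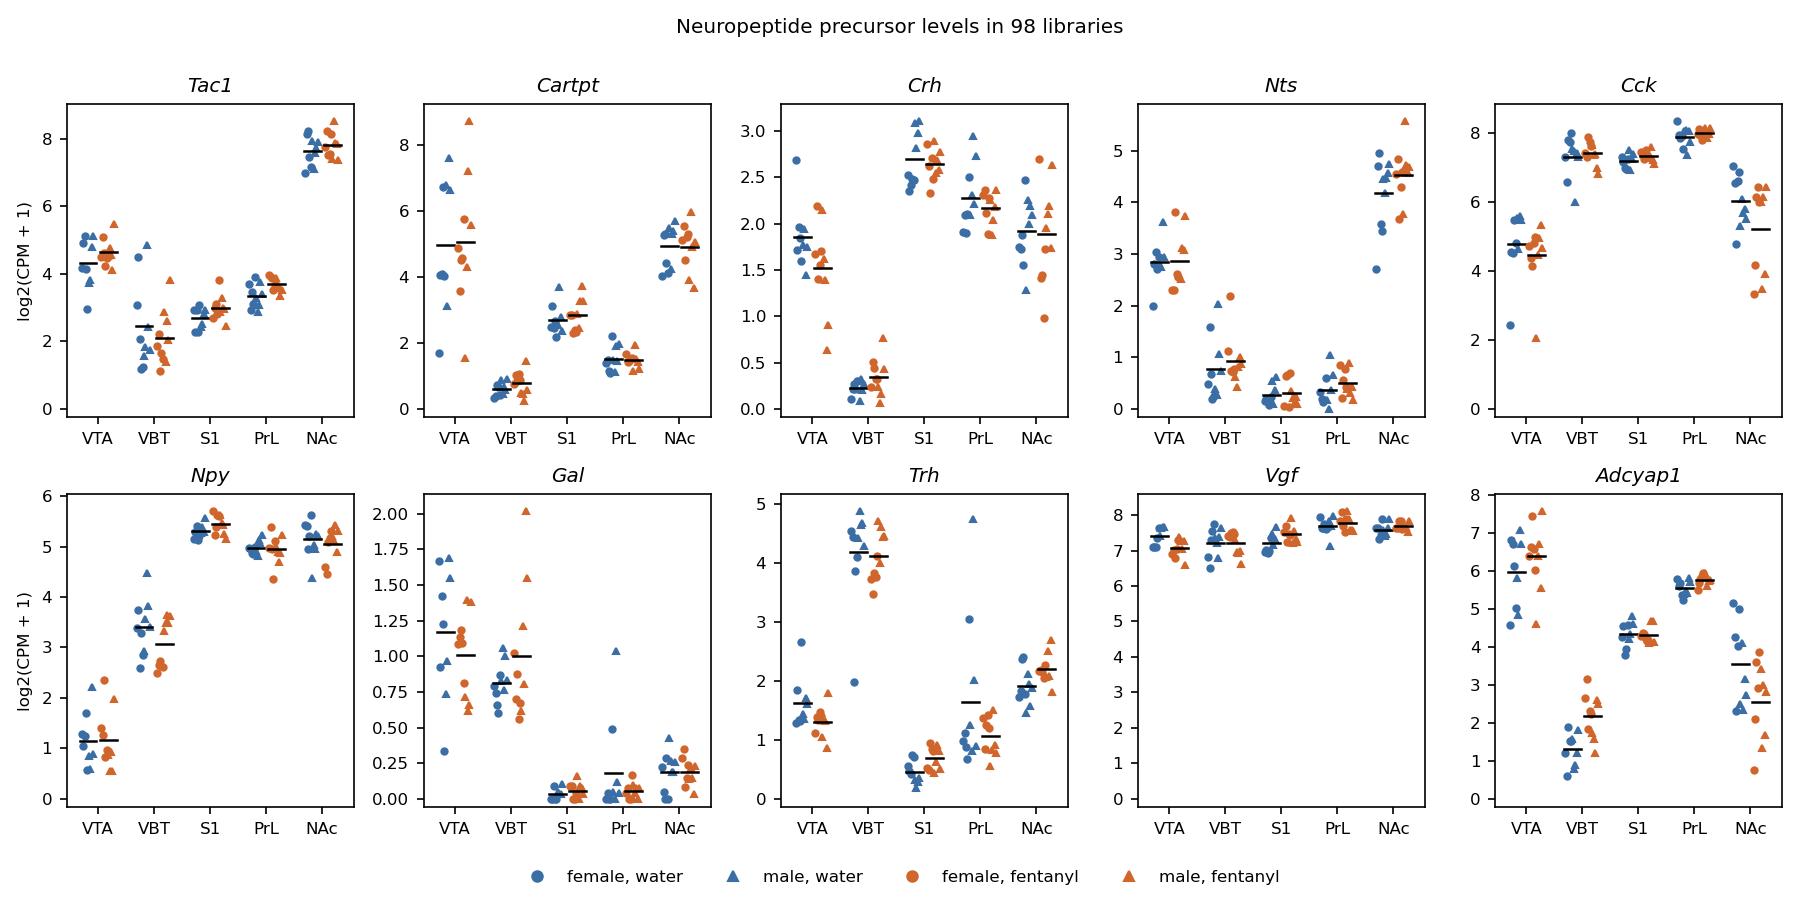
Level of each precursor as log2(CPM + 1) on the vertical axis, by region on the horizontal axis, in 98 libraries. Each point is a library, blue for water and orange for fentanyl, circles for females and triangles for males, and black lines are means of the log2 values. Tac1 and Nts are highest in NAc and Trh in VBT, Vgf is nearly level, and Cartpt in VTA, Cck and Adcyap1 in NAc spread over many-fold ranges within a region.

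Differences between regions were tested in the water libraries by edgeR's quasi-likelihood test, over 10 pairs of regions and 21468 genes. All 10 precursors were tested in each pair. Between 6 and 9 of them were called at an adjusted p under 0.05: 8 in VTA against VBT (52.5% of all genes called), 9 in VTA against S1 (67.6%), 8 in VTA against PrL (66.5%), 6 in VTA against NAc (64.8%), 7 in VBT against S1 (68%), 8 in VBT against PrL (68.4%), 9 in VBT against NAc (67.8%), 7 in S1 against PrL (37.3%), 8 in S1 against NAc (53.3%) and 6 in PrL against NAc (50.3%). A called difference between regions is therefore common among all genes. Over all pairs and precursors, 76 of 100 differences were called. Of the 40 pairs of neighbours in the order of a gene's levels, 22 were called.

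The striatal peptides are described next. Tac1 was 127 to 365 CPM in NAc (median 213, n = 20), 6.84 to 43.2 in VTA (median 21.9, n = 19), 6.36 to 14.6 in PrL, 3.8 to 13.1 in S1 and 1.19 to 27.7 in VBT. No library of another region reached the lowest NAc library. In water the step from NAc down to VTA was 3.29 on the log2 scale (SE 0.42, adjusted p = 7.97e-09), and that from VTA to PrL was 1.04 (SE 0.395, adjusted p = 0.02; 0.0564 without the libraries of replicate number 4). Neither PrL and VBT nor VBT and S1 were separated (adjusted p = 0.407 and 0.391), though PrL minus VBT was called without the libraries of replicate number 3 (1.01, adjusted p = 0.0252) and in the fentanyl libraries (1.76, adjusted p = 9.39e-09). VBT minus S1 was -0.95 in the fentanyl libraries (adjusted p = 0.000509), opposite in sign to the 0.41 in water. The VBT values were uneven, with a median of 2.86 CPM, and 3 libraries were far above it: male water 3 at 27.7, female water 2 at 21.5 and male fentanyl 5 at 13.0. The summed CPM of the striatal projection neuron markers was 1030, 730.5 and 449.7 in those libraries, and its median over VBT was 209.6. Over the 20 VBT libraries, Tac1 and the mean log2 level of these markers had a Pearson r of 0.966 and a Spearman rho of 0.821 (permutation p = 1e-05, the smallest the permutations can give, and 2e-05; adjusted 0.000352 and 0.00088), and an r of 0.918 without the 2 libraries farthest from the median. Nts, whose peptide modulates dopamine neurons, was 5.57 to 46.6 CPM in NAc (median 22.6) and 2.97 to 13.1 in VTA (median 5.81), with a log2 step of 1.53 between them in water (SE 0.372, adjusted p = 0.000421). It was at most 3.55 CPM in VBT, 1.06 in PrL and 0.614 in S1, and the step from PrL to S1 was not called (adjusted p = 0.398).

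Cartpt had its highest mean in VTA, where single libraries ran from 1.92 to 420 CPM with a median of 22.8. In NAc it was 11.7 to 61.1 CPM with a median of 34.6. The medians are thus in the opposite order to the means, and the log2 difference of VTA minus NAc in water was 0.83 (SE 0.394, adjusted p = 0.0637), which was not called; it was -0.10 without the libraries of replicate number 4 and 1.10, and called, without those of number 2 (adjusted p = 0.0182). From NAc the level stepped down to S1 by 2.32 on the log2 scale (adjusted p = 1.84e-05), from S1 to PrL by 1.58 (adjusted p = 0.0057; 0.0682 without replicate number 3) and from PrL to VBT by 1.86 (adjusted p = 0.00405; 0.0525 in the fentanyl libraries). The libraries with most Cartpt in VTA were male fentanyl 4 at 420 CPM, male water 4 at 193 and male fentanyl 3 at 146. Within VTA, Cartpt moved with 3 Edinger-Westphal markers (Ucn, Nmb and Postn, none at 0 in any of the 19 libraries), whose summed CPM ran from 6.11 to 73.3. The Pearson r was 0.954 and the Spearman rho 0.986 (n = 19, permutation p = 1e-05, the smallest the permutations can give, adjusted 0.000352 and 0.00066), and r was 0.946 without the 2 farthest libraries.

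Cck, the most abundant precursor per length in PrL, S1 and VBT, was 163 to 323 CPM in PrL (median 251), 63.2 to 253 in VBT (median 169), 120 to 191 in S1 (median 153), 9.01 to 130 in NAc (median 62.8) and 3.17 to 47.4 in VTA (median 25.2). Neither PrL and VBT (adjusted p = 0.0878) nor VBT and S1 (adjusted p = 0.364) were separated in water. S1 exceeded NAc by 1.17 on the log2 scale (SE 0.253, adjusted p = 0.000151), and NAc exceeded VTA by 1.16 (SE 0.259, adjusted p = 0.000159). In NAc the level of Cck followed that of 7 cortical pyramidal neuron markers, none of them at 0 in any library, whose summed CPM ran from 90.1 to 1495. The Pearson r was 0.989 and the Spearman rho 0.967 over the 20 libraries (permutation p = 1e-05, the smallest the permutations can give, adjusted 0.000352 and 0.00066), r was 0.983 without the 2 farthest libraries and 0.988 after subtraction of the means of the 4 groups. In VBT, Cck followed the 7 thalamic neuron markers in the same way (r = 0.934, rho = 0.881, permutation p = 1e-05, adjusted 0.000352 and 0.00066, r = 0.813 without the 2 farthest), and it was lowest, at 63.2 CPM, in male water 3, the library with most Tac1.

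The interneuron peptides came next. Npy was 33.9 to 50.9 CPM in S1 (median 40.9), 19.9 to 48.2 in NAc (median 35.5) and 19.4 to 40.8 in PrL (median 30.1), and these regions were not separated from their neighbours in water (adjusted p = 0.327 and 0.689), though S1 exceeded NAc in the fentanyl libraries (0.44, adjusted p = 0.0264). It was lower in VBT, at 4.65 to 21.1 CPM, by 1.56 on the log2 scale from PrL (SE 0.193, adjusted p = 2.49e-09), and lower again in VTA, at 0.469 to 4.12 CPM, by 2.99 from VBT (SE 0.238, adjusted p = 4.39e-14). Within VBT, Npy moved with the 10 GABA neuron markers (r = 0.872, rho = 0.836, n = 20, permutation p = 1e-05 and 2e-05, adjusted 0.000352 and 0.00088, r = 0.814 without the 2 farthest). The permutations ran across the groups of sex and treatment, so any difference between groups enters these values. Crh was low everywhere: 4.02 to 7.62 CPM in S1, 2.69 to 6.69 in PrL, 0.98 to 5.48 in NAc, 0.55 to 5.46 in VTA and 0.0448 to 0.695 in VBT. S1 exceeded PrL by 0.50 on the log2 scale (SE 0.177, adjusted p = 0.0229) and PrL exceeded NAc by 0.54 (SE 0.175, adjusted p = 0.00929), while NAc and VTA were not separated (adjusted p = 0.59), though they were without replicate number 1 (0.40, adjusted p = 0.0387) and in the fentanyl libraries (0.58, adjusted p = 0.0352). The call of S1 over PrL was lost without replicate number 1 or 4 (adjusted p = 0.064 and 0.111) and in the fentanyl libraries (0.0612), and that of PrL over NAc without replicate number 3 (0.0555) and in the fentanyl libraries (0.159).

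Among the peptides best known from the hypothalamus, Trh was highest in VBT, at 2.93 to 28.5 CPM with a median of 19.6, and exceeded PrL there by 2.41 on the log2 scale in water (SE 0.448, adjusted p = 9.96e-06). It was 1.74 to 5.48 CPM in NAc, 0.812 to 5.35 in VTA and 0.135 to 0.927 in S1. Its PrL mean in water rested on 2 libraries, male water 3 at 26.0 CPM and female water 5 at 7.28; the other PrL libraries lay between 0.474 and 3.06. The summed CPM of 5 olfactory bulb markers (Eomes, Tbx21, Doc2g, Cdhr1 and Th) was 385 and 201 in those 2 libraries, all 5 being above 0, and its median over PrL was 8.89; male water 4, with 3.06 CPM of Trh, had 38.9. Since these libraries stand apart from the others, no correlation is given. In the fentanyl libraries, PrL minus NAc for Trh was -1.61 on the log2 scale (adjusted p = 1.48e-10), opposite in sign to the 0.46 in water. Gal was 0.262 to 2.22 CPM in VTA and 0.473 to 3.05 in VBT, which were not separated (adjusted p = 0.234), and at most 0.119 CPM in S1, 0.342 in NAc and 1.06 in PrL. The smallest library used allows up to 0.13 CPM for a count of 0, so nearly all S1 and PrL values of Gal are at or under the limit of detection.

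Adcyap1, whose peptide PACAP acts on receptors that raise cAMP, was 22.9 to 188 CPM in VTA (median 83.1), 36.5 to 60.1 in PrL (median 50.7), 12.7 to 26.9 in S1 (median 18.6), 0.695 to 34.3 in NAc (median 6.73) and 0.516 to 7.95 in VBT (median 2.16). VTA and PrL were not separated in water (adjusted p = 0.102), though they were in the fentanyl libraries (0.68, adjusted p = 0.0413). PrL exceeded S1 by 1.23 on the log2 scale (SE 0.312, adjusted p = 0.00176), S1 exceeded NAc by 0.73 (SE 0.313, adjusted p = 0.0478; 0.0913 with no filter, and 0.138, 0.17 and 0.12 without replicate number 3, 4 or 5) and NAc exceeded VBT by 2.86 (SE 0.36, adjusted p = 4.69e-09). In the fentanyl libraries the last step was 0.61 and was not called (adjusted p = 0.114). Adcyap1 was even in the cortex, with a coefficient of variation of 13.5% in PrL, and uneven in NAc, with 90.4%. In NAc it moved with the cortical pyramidal neuron markers (r = 0.894, rho = 0.878, n = 20, permutation p = 1e-05, adjusted 0.000352 and 0.00066, r = 0.829 without the 2 farthest libraries). In VTA it moved with 10 hypothalamus and mammillary markers, of which at least 9 were above 0 in every library and whose summed CPM ran from 5.58 to 89.9 (r = 0.927, rho = 0.914, n = 19, permutation p = 1e-05, adjusted 0.000352 and 0.00066, r = 0.936 without the 2 farthest). These relations belong to a family of 528 between precursors and marker lists within a region, of which 95 had an adjusted p under 0.05. All permutations ran over the libraries of a region and not within its groups of sex and treatment. Whether tissue at the edge of a punch sets these levels was not tested. The plot of precursors against marker sums shows 8 of the pairs.

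**Figure D2:**
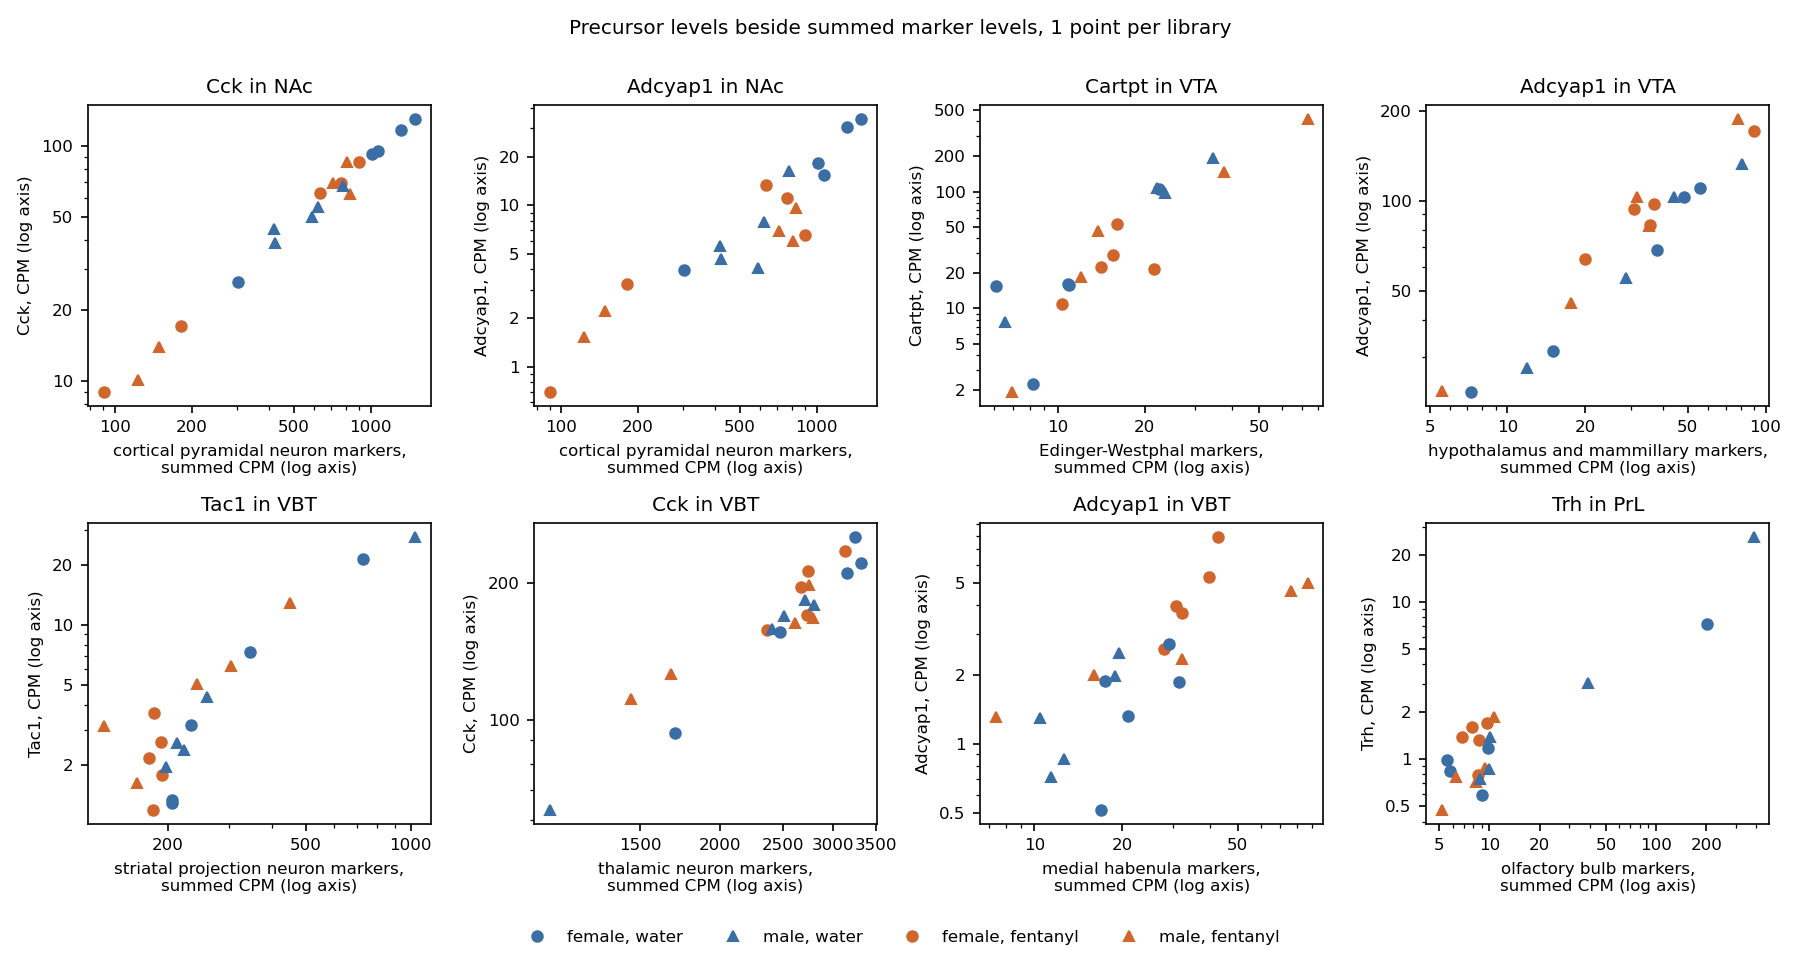
CPM of a precursor on the vertical axis against the summed CPM of a marker list on the horizontal axis, both on log axes, with 1 point per library of the named region (blue for water, orange for fentanyl, circles for females, triangles for males). Cck in NAc lies close to a line from 9.01 to 130 CPM, and in PrL 2 water libraries with 7.28 and 26.0 CPM of Trh stand apart from the rest.

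Vgf, a precursor of dense-core granules that neurons make in response to activity and neurotrophins, was 138 to 275 CPM in PrL, 158 to 236 in NAc, 121 to 242 in S1, 90.6 to 213 in VBT and 96 to 201 in VTA. None of its 4 steps between neighbouring regions was called in water, and 3 of its 10 pairs were; in the fentanyl libraries NAc exceeded VTA by 0.67 on the log2 scale (adjusted p = 9.69e-08). Its coefficient of variation was 11.0% in NAc and at most 22.7%, in VBT.

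Exposure to fentanyl was then compared with water within each region. In females and in males, 92 tests of a precursor were possible, since Gal was filtered out for low counts in S1, PrL and NAc and Crh in VBT. None of the 92 was called, and 19 (20.7%) had an unadjusted p under 0.05, against 13.4% of all tests of genes in the same comparisons. By region, such a p was found in females for 1 of 10 precursors in VTA (12.7% of all genes), 3 of 9 in VBT (7.86%), 4 of 9 in S1 (13.9%), 1 of 9 in PrL (9.53%) and 2 of 9 in NAc (9.03%). In males it was found for 1 of 10 in VTA (34.7%), 2 of 9 in VBT (8.7%), 2 of 9 in S1 (7.15%), 2 of 9 in PrL (12%) and 1 of 9 in NAc (17.6%). DESeq2's Wald test called 1 of the 92, Vgf in VTA males. Over all genes, 22% were called in VTA males, 0.142% in S1 females, 0.021% in PrL females, 0.662% in NAc males and 0% in the other 6 comparisons. In the average of the sexes, 1 of 46 tests was called, Vgf in VTA, beside 23.1% of all genes in VTA, 1.03% in S1, 0.697% in PrL and 0% in VBT and NAc. An unadjusted p under 0.05 was found there for 2 of 10 in VTA (35.4% of all genes), 2 of 9 in VBT (8.49%), 5 of 9 in S1 (15.8%), 3 of 9 in PrL (19.1%) and 2 of 9 in NAc (12%). The difference between the sexes in the effect of fentanyl was called for none of 46, and for 0 genes in any region. An unadjusted p under 0.05 was found for 3 precursors in S1 (4.14% of all genes) and 1 in NAc (15.2%), and for 0 in VTA (11.4%), VBT (8.03%) and PrL (2.59%); DESeq2's Wald test called no precursor either. With no litters or animals named in the labels, these p-values measure only the spread between these libraries, which may be partly technical.

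**Figure D3:**
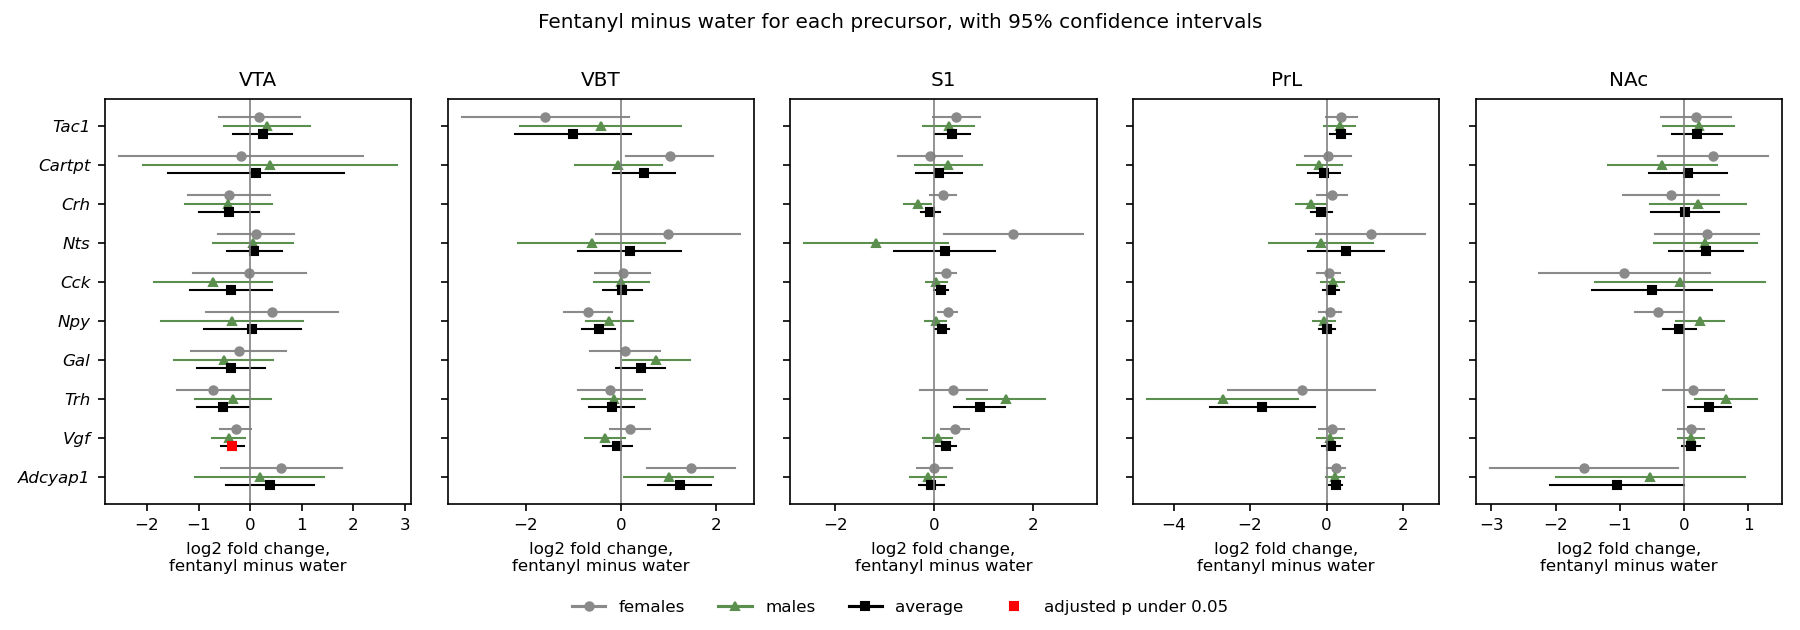
Log2 fold change of fentanyl minus water on the horizontal axis for each precursor in each region, with 95% confidence intervals from edgeR, in females (grey circles), males (green triangles) and their average (black squares). The single red square marks Vgf in VTA, the 1 call at an adjusted p under 0.05; intervals of Cartpt in VTA, Trh in PrL and Adcyap1 in NAc are wide.

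Vgf was lower in VTA after fentanyl. Its CPM in water females was 137, 136, 137, 163 and 199, and in fentanyl females 119, 128, 110, 130 and 156. In water males it was 168, 197, 200 and 201, and in fentanyl males 167, 152, 131, 154 and 96. The groups overlapped in females and did not overlap in males, where the lowest water library and the highest fentanyl library were 168 and 167 CPM; 22.4% of all genes tested did not overlap between the male groups of VTA. The means were 154 ± 27.4 and 129 ± 17.4 CPM in water and fentanyl females (SD, n = 5 each) and 192 ± 15.8 (n = 4) and 140 ± 27.7 (n = 5) in water and fentanyl males. The average log2 fold change was -0.35 (SE 0.105, 95% confidence interval -0.57 to -0.13, adjusted p = 0.0234). It was -0.28 in females (adjusted p = 0.425) and -0.41 in males (SE 0.153, adjusted p = 0.0611), and the sexes did not differ beyond error (log2 difference -0.13, adjusted p = 0.823). The call was kept in all 19 fits without 1 library each, with -0.39 to -0.28, and ended in 6 of 11 other alternatives, among them that with no filter on low counts.

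GC content moved with the groups of VTA. Across genes, the levels of a library relative to the VTA mean had a Spearman rho with GC content of 0.521 to 0.653 in the 4 water males and of -0.499 to -0.119 in the 5 fentanyl males, and of -0.323 to 0.661 and -0.562 to 0.017 in water and fentanyl females. Vgf has a GC content of 64.8%, higher than 99.4% of the genes tested in VTA, whose median is 49.6%. The trend on exon length also moved with the male groups, with a rho of -0.221 to -0.134 after water and -0.01 to 0.206 after fentanyl, and with offsets for exon length the average was -0.31 and was not called. With offsets that remove each library's trend on GC content, the average log2 fold change of Vgf was 0.04 (adjusted p = 0.898; over its alternatives the adjusted p ran from 0.00152 to 0.9999), and that in males was 0.15 (adjusted p = 0.645). The call thus ended and the sign turned. With the 6333-gene library kept, the log2 fold change was -0.24 and was not called. The summed CPM of dopamine neuron markers had a median of 1458 in water males and 857.5 in fentanyl males of VTA, and 1666 and 1527 in females. That of 5 blood markers was 91 in water males and 203 in fentanyl males, and 100.5 and 241 in females, and the groups overlapped in each. The part of these markers, of exon length and of GC content in the VTA results was not tested.

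**Figure D4:**
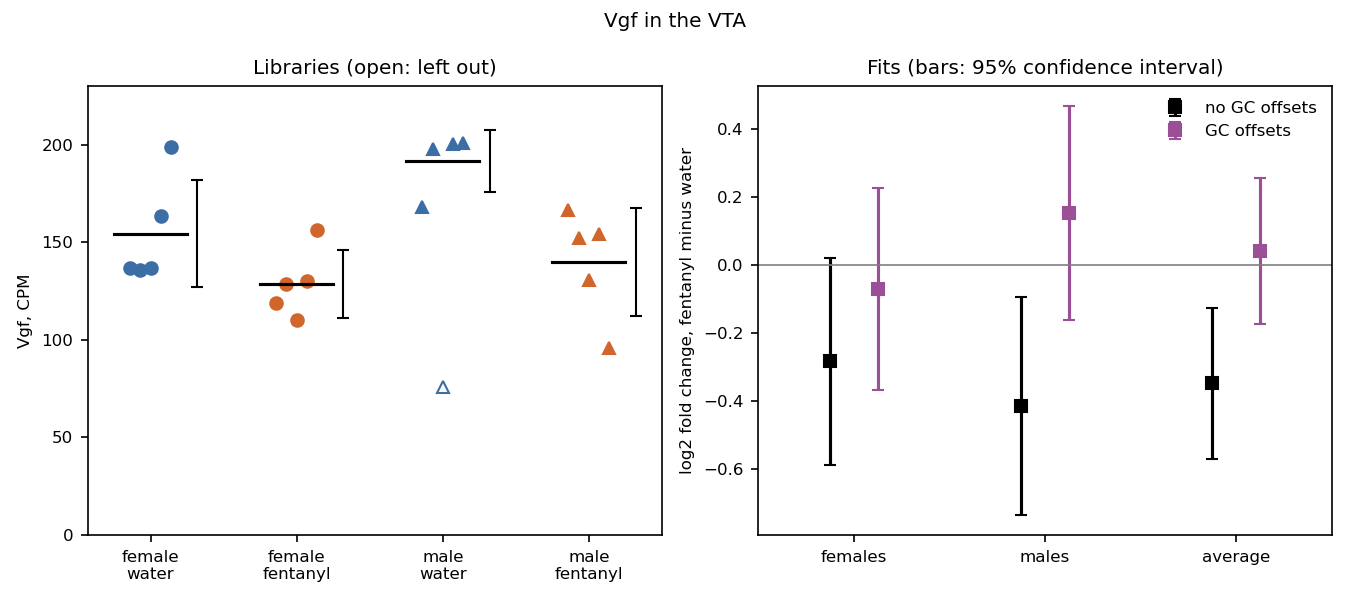
Left, CPM of Vgf on the vertical axis in each VTA library by group, with the mean (line) and SD (bar) of the libraries used; the open triangle at 75.6 CPM is the library left out. Right, log2 fold change of fentanyl minus water with its 95% confidence interval without (black) and with (purple) offsets for GC content; the average is -0.35 without and 0.04 with them.

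In VBT and in NAc, Adcyap1 had the largest average difference of the 9 precursors tested, and it was not called in either. In VBT its CPM was 1.32, 0.516, 2.71, 1.88 and 1.85 in water females and 5.32, 7.95, 2.57, 3.98 and 3.69 in fentanyl females. In males it was 1.98, 0.716, 0.859, 1.29 and 2.49 after water and 2.33, 2.0, 1.30, 5.02 and 4.61 after fentanyl. The groups overlapped in both sexes, in females by a single pair of libraries. The average log2 fold change in VBT was 1.24 (SE 0.315, adjusted p = 0.445, 95% confidence interval 0.58 to 1.90). The summed CPM of 7 medial habenula markers, a nucleus dorsal to this part of the thalamus, was 27.9 to 42.9 in fentanyl females against 16.9 to 31.3 in water females, and 7.37 to 86.8 in fentanyl males against 10.5 to 19.5 in water males; Adcyap1 and these markers had an r of 0.715 and a rho of 0.764 over the 20 libraries (permutation p = 0.00031 and 0.00019, adjusted 0.00481 and 0.00578, r = 0.707 without the 2 farthest). With the marker level as a covariate, an alternative chosen after seeing the data, the average was 0.75 (SE 0.281, adjusted p = 0.661). These markers are not specific to the habenula in these punches. The median of their summed CPM was 24.41 in VBT, 31.98 in NAc and 227.1 in VTA, and 17.35 in PrL and 10.7 in S1. Calb2 is in this list and also in that of the thalamic neuron markers. Whether the VBT punches held habenula tissue was not tested.

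In NAc the direction was the opposite. Adcyap1 was 34.3, 18.2, 3.96, 15.3 and 30.6 CPM in water females and 0.695, 3.26, 11.1, 6.53 and 13.4 in fentanyl females, and 4.66, 16.2, 4.08, 7.9 and 5.59 in water males against 9.63, 1.53, 6.92, 2.21 and 6.04 in fentanyl males. The groups overlapped in both sexes. The log2 fold change was -1.56 in females (SE 0.693, adjusted p = 0.544) and -0.52 in males. The summed CPM of the cortical pyramidal neuron markers had a median of 1072 in water females and 633.8 in fentanyl females, and of 588.4 and 713.6 in water and fentanyl males. With these markers as a covariate, chosen after seeing the data, the value in females was -0.44 (SE 0.391, adjusted p = 0.998), and that of Cck, with 130, 91.9, 26.4, 95.4 and 117 CPM in water females and 9.01, 17.1, 69.3, 85.2 and 62.9 in fentanyl females, was 0.03 (SE 0.111). In VTA the average of Adcyap1 was 0.39 and was not called. With the hypothalamus and mammillary markers as a covariate, chosen after seeing the data, it was 0.47 (SE 0.115, adjusted p = 0.00733, over its alternatives from 0.00733 to 0.9999). That fit had no GC offsets. Adcyap1 has a GC content of 43.0%, higher than 15.2% of the genes tested in VTA. With GC offsets and no marker covariate, no precursor was called there. In PrL the average of Adcyap1 was 0.24 (SE 0.0787, adjusted p = 0.123).

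Trh, the releasing hormone of the thyroid axis, was near the limit of detection in S1. It was 0.249, 0.135, 0.22 and 0.274 CPM in water males and 0.358, 0.55, 0.895, 0.749 and 0.423 in fentanyl males, so the male groups did not overlap, as in 1.72% of all genes tested. In females it was 0.341 to 0.684 CPM after water and 0.402 to 0.927 after fentanyl, and the groups overlapped. The average log2 fold change was 0.93 (SE 0.25, adjusted p = 0.0663); DESeq2's Wald test gave an adjusted p of 0.0265 and edgeR without male fentanyl 5 gave 0.044, the range over alternatives without a library left out being 0.0265 to 0.103. In PrL the male value was -2.72 (SE 0.937, adjusted p = 0.358), with 1.38, 0.745, 26.0, 3.06 and 0.866 CPM in water males and 0.474, 0.772, 1.84, 0.881 and 0.716 in fentanyl males. Without male water 3 and female water 5 it was -0.69, and the average of the sexes changed from -1.69 to -0.04. With reads outside exons as a covariate the sign turned in males and on average. With olfactory bulb markers as a covariate, chosen after seeing the data, it turned on average. In NAc males, Trh was 1.74 to 3.33 CPM after water and 2.52 to 5.48 after fentanyl (log2 fold change 0.65, SE 0.231, adjusted p = 0.141).

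In S1 females, 4 of 9 precursors had an unadjusted p under 0.05, all with more after fentanyl, beside 13.9% of all genes. Vgf was 121 to 163 CPM after water and 152 to 208 after fentanyl (log2 fold change 0.42, SE 0.134, adjusted p = 0.163). Npy was 33.9 to 41.3 and 36.3 to 50.9 (0.28, adjusted p = 0.186), Cck was 123 to 158 and 151 to 181 (0.24, adjusted p = 0.264) and Nts, near the limit of detection at 0.0507 to 0.175 and 0.0272 to 0.614, had a log2 fold change of 1.60 (adjusted p = 0.293). In S1 males the values were 0.08 for Vgf, 0.03 for Npy, 0.05 for Cck and -1.17 for Nts, and the male minus female difference of Nts was -2.78 (adjusted p = 0.957). The groups overlapped in each in females. The summed CPM of 12 activity-regulated genes was 353 to 766 in water females (median 515) and 636 to 1188 in fentanyl females of S1 (median 752). In S1 males, too, it was higher after fentanyl, at 346 to 783 after water (median 450) and 469 to 1774 after fentanyl (median 778). The libraries of S1 females also differed in their trend on GC content, with a rho of -0.429 to 0.013 after water and -0.144 to 0.301 after fentanyl. Their trend on exon length did not overlap, with a rho of 0.05 to 0.286 after water and -0.325 to 0.00065 after fentanyl. With the GC offsets the difference of Vgf was 0.23 and that of Npy 0.21, and with offsets for exon length they were 0.37 and 0.12; the genes called in S1 females went from 28 to 0 with the latter. The part of any of these measures in these differences was not tested.

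Npy went in different directions across regions, none of them called. In VBT females it was 9.41, 12.4, 5.06, 8.71 and 6.18 CPM after water and 4.65, 5.32, 5.63, 5.18 and 5.15 after fentanyl (log2 fold change -0.69, SE 0.239, adjusted p = 0.472), with the fentanyl libraries closely grouped inside the range of the water ones or just under it. In NAc it was -0.40 in females (SE 0.176, adjusted p = 0.544), and the male minus female difference of the effect was 0.65 (SE 0.249, adjusted p = 0.217). Cartpt in VBT was 0.244, 0.314, 0.661, 0.573 and 0.335 CPM in water females and 0.671, 1.02, 0.808, 1.07 and 0.845 in fentanyl females, which did not overlap, as in 2.06% of all genes tested (log2 fold change 1.03, SE 0.436, adjusted p = 0.554), while in males it was -0.05. Tac1 in NAc had an average log2 fold change of 0.21, and Crh, a gene of the stress axis, was between -0.42 and 0.01 on average in the 4 regions where it was tested.

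Males and females were compared over both treatments. No precursor was called in any region, and the share of all genes called was 0.077% in NAc, 0.0786% in PrL, 0.0709% in S1, 0.132% in VBT and 0.0858% in VTA. An unadjusted p under 0.05 was found for 8 of 46: 3 in S1 (6.12% of all genes), 3 in VBT (13.1%), 2 in VTA (7.25%), 0 in NAc (9.72%) and 0 in PrL (3.92%). Crh in S1 was 6.07 to 7.62 CPM in water males against 4.13 to 4.78 in water females, which did not overlap, as in 1.68% of all genes tested, and 4.86 to 6.42 against 4.02 to 6.28 after fentanyl, which did. The averaged male minus female log2 difference was 0.40 (SE 0.0919, edgeR adjusted p = 0.211, DESeq2 adjusted p = 0.0189; over its alternatives 0.0189 to 0.317). Npy in VBT was 0.77 higher in males (SE 0.168, edgeR adjusted p = 0.0946, DESeq2 adjusted p = 0.00195; over its alternatives 0.00195 to 0.173). Without female water 2 or without male water 1 the adjusted p of Npy was 0.0182 or 0.019. In VBT the summed CPM of the GABA neuron markers was 1318 to 2223 (median 1580) in water males and 554 to 1879 (median 1142) in water females, and 1504 to 2164 (median 1610) against 814 to 1120 (median 1003) after fentanyl. Their part in the difference was not tested. Cartpt in VTA was 1.99 higher in males (SE 0.818, adjusted p = 0.686), and -0.12 with the Edinger-Westphal markers as a covariate.

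The genes that make, sense and remove these peptides were read from lists. Of 20 receptors, 16 to 18 were tested in a region. Npy5r, a receptor of neuropeptide Y, rose in VTA males by 0.62 on the log2 scale (SE 0.203, adjusted p = 0.0343; 2.92 to 3.03 CPM after water and 2.97 to 6.34 after fentanyl), and Ntsr2, a neurotensin receptor of astrocytes, fell by 0.26 (SE 0.0725, adjusted p = 0.0151). These are 2 of 18 receptors tested, beside 22% of all genes. With GC offsets they were 0.51 and 0.07 and were not called, the sign of Ntsr2 being turned. Without 1 library each, the calls in males were kept in 12 (Npy5r) and 18 (Ntsr2) of 19 fits. No other receptor was called in VTA males, and the same pair was called in the average of the sexes, beside 23.1% of all genes; those calls were kept in 6 and 7 of 19 fits without 1 library each. Cckbr, the main cholecystokinin receptor of the brain, rose in PrL in the average of the sexes: it was 74.7 to 88.5 and 72.4 to 87.9 CPM in water females and males and 81.9 to 95.8 and 86.5 to 99.2 after fentanyl (log2 fold change 0.20, SE 0.0453, adjusted p = 0.0477; 0.23 with GC offsets, adjusted p = 0.0294; over its alternatives 0.00507 to 0.653). The groups overlapped in both sexes, and the call was kept in 3 of 20 fits without 1 library each. With olfactory bulb markers as a covariate, chosen after seeing the data, it was 0.15 (adjusted p = 0.149).

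Of the 16 processing and granule genes, all were tested. In VTA males 2 rose and 2 fell, beside 22% of all genes, with a median log2 fold change of -0.05 over the list and 0.00 over all genes. Pcsk1n, whose product proSAAS inhibits the convertase PC1/3, was 418 to 504 CPM in water males and 195 to 274 in fentanyl males, which did not overlap, as in 22.4% of all genes tested (log2 fold change -0.95, SE 0.148, adjusted p = 0.00218). It was 246 to 491 and 223 to 288 CPM in water and fentanyl females. With GC offsets it was -0.65 in males (adjusted p = 0.00633) and -0.50 on average (adjusted p = 0.00161), and no other of these 16 was called with them; its own GC content is 57.3%. Ptprn, a granule membrane protein, fell by 0.43 in males (adjusted p = 0.00478; -0.06 with GC offsets) and Scg3 and Cadps, of granule formation and release, rose by 0.15 and 0.27 (adjusted p = 0.0346 and 0.0463). Without 1 library each, the calls were kept in 19 of 19 fits for Pcsk1n and Ptprn, 14 for Scg3 and 10 for Cadps. In the average of the sexes 1 rose and 3 fell, beside 23.1% of all genes, the list median being 0.06. Among them Chga fell by 0.18 (adjusted p = 0.0308), a call kept in 10 of 19 fits without 1 library each. With GC offsets Chga was 0.03 (adjusted p = 0.901), the sign being turned. Among the 5 binding and degrading genes, Thop1 fell by 0.30 in VTA males (adjusted p = 0.0129; 0.06 with GC offsets, the sign being turned) and Mme, the neprilysin gene, rose by 0.36 on average (adjusted p = 0.0211). Among 8 further peptides, Sst, of somatostatin interneurons, fell by 1.01 in VTA males, from 69 to 112 CPM after water to 20.2 to 75.3 after fentanyl (adjusted p = 0.0314; kept in 13 of 19 fits without 1 library each). With GC offsets, Pcsk1n was the only gene of these lists called in VTA. Sst was then -0.77, Scg3 0.12 and Cadps 0.23 in males (adjusted p = 0.176, 0.202 and 0.25). The shares of 22% and 23.1% of all genes belong to the fit without these offsets. They are no background for the call of Pcsk1n with them. No gene of the 4 lists was called in VBT, S1 or NAc.

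The genes whose levels were most like those of a precursor were found from the residuals of log2(CPM + 1) after subtraction of the 20 group means, over 98 libraries, among genes with a mean of at least 5 CPM in the precursor's highest region. These are descriptions over libraries that share their punch and depth. Tac1 was most like Rgs9 (r = 0.886) and Drd1 (r = 0.861), and Nts like Clip4 (r = 0.687) and Gpr83 (r = 0.676). Adcyap1 was most like Bdnf (r = 0.829) and Sstr3 (r = 0.791), Cck like Nrn1 (r = 0.809) and Apba1 (r = 0.797), and Cartpt like Ghsr (r = 0.786) and Foxa2 (r = 0.753). Trh was most like Pbx3 (r = 0.744) and Map3k1 (r = 0.722), and Vgf like Clstn3 (r = 0.720) and Ahsa1 (r = 0.686). For Npy the highest values were 0.597 for Mmgt2 and 0.588 for Tnfaip8l3, for Gal 0.557 for Inafm2 and 0.551 for Cmtr2, and for Crh 0.527 for Sox1ot and 0.475 for Peg10. Over the libraries of a precursor's highest region alone, the genes of highest r were mostly others. In NAc, Tac1 was then most like Clip4 (r = 0.954) and Nts like Chn2 (r = 0.962). Ghsr for Cartpt (r = 0.892) and Bdnf for Adcyap1 (r = 0.969), in VTA, were among them both ways.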

How the data were processed

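RNA from tissue punches (SMART-Seq v4 from 10 ng) was sequenced, and the authors deposited raw read counts per Ensembl gene, counted with HTSeq on GRCm38, per the submitters' processing notes. The aligner, annotation release and strand setting are not given in the sources used here. Libraries used held 23032078 to 52069639 assigned counts; reads outside exons, left out of library sizes, were 9.99% to 18.0%. VTA male water 3, under 10000 genes detected, was left out. Floors (3 counts) cover counting error only; confidence intervals are those of edgeR, from the spread between libraries.

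Symbols, exon lengths and GC content came from GENCODE M21 and promoters from RefSeq. Each region was fitted alone in edgeR 4.0.16 (R 4.3.3; TMM, filterByExpr, robust quasi-likelihood F-test over 4 groups, with contrasts in females, in males, their average and difference, and of sex), and regions were compared in the water libraries, averaged over sex. All p-values were Benjamini-Hochberg adjusted over all genes tested, with a threshold of 0.05. Marker relations used permutation tests with 100000 resamples, two-sided, on log2(CPM + 1), over all libraries of a region and not within groups. Scripts were tested on simulated data. Alternatives were DESeq2 1.42.0, its size factors, no filter, a replicate block, offsets for exon length or for GC content, adjustment for reads outside exons, the library kept and each library left out. Marker covariates and the removal of 2 PrL libraries were chosen after seeing the data. The members and lists were chosen with earlier results of these data known. Every member is named; of the genes called in a list, the 3 of smallest p in each region, contrast and direction; for likeness, the 2 genes of highest r.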

Additional observations from a re-analysis of the deposited data

Results flagged for a closer look

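In 184 groups of 4 or 5 libraries, 21 held a library whose level of a precursor stood apart from the others of its group by Dixon's test, where chance alone flags about 5% of groups, or 9.2. Several fall in the same libraries, and the values are CPM.

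In PrL, female water 5 stood apart in Cartpt (3.58, others 1.13 to 1.77), Crh (4.70, others 2.75 to 3.29) and Trh (7.28, others 0.593 to 1.18), and male water 3 in Trh (26.0, others 0.745 to 3.06). These are the libraries with the highest olfactory bulb marker sums. Male fentanyl 2 stood apart in Nts (0.852, others 0.133 to 0.339). In VBT, male water 3 was high in Tac1 (27.7, others 1.96 to 4.38) and low in Cck (63.2, others 158 to 183), Nts was high in female fentanyl 2 (3.55, others 0.647 to 1.16) and female water 2 (2.02, others 0.136 to 0.599), and Cartpt in male fentanyl 4 (1.72, others 0.186 to 0.473).

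In VTA, female fentanyl 3 was high in Nts (13.1, others 3.91 to 5.08) and Npy (4.12, others 0.767 to 1.63). Npy was also high in male fentanyl 5 (2.94, others 0.469 to 0.895) and male water 4 (3.66, others 0.506 to 0.841), Cartpt in female water 4 (105, others 2.24 to 16.1) and Crh in female water 1 (5.46, others 2.04 to 2.89). Male water 2 was low in Cck (23.9, others 43.6 to 47.4), and male water 1 was low in Vgf (168, others 197 to 201). In S1, Tac1 was high in female fentanyl 5 (13.1, others 5.42 to 7.53) and Vgf in female water 5 (163, others 121 to 128). In NAc, Crh was high in female water 5 (4.56, others 1.95 to 2.69).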

How the results depend on the processing

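Of the precursors, 0 were called in VTA males and 1 in the average of the sexes. In males it was 1 by DESeq2's Wald test, with reads outside exons as a covariate and with the hypothalamus and mammillary covariate, and 0 to 1 without a library each (1 without female water 5 or male fentanyl 1). In the average it was 0 with no filter, with the replicate block (Vgf -0.32, adjusted p = 0.056), with GC offsets with or without the block, with exon length offsets and with VTA male water 3 kept, and 2 with the hypothalamus and mammillary covariate. By DESeq2 it was 1 for sex in VBT, for sex in S1 and for the average in S1, against 0 in edgeR; without a library each it was 0 to 1 for sex in VBT and for the average in S1. Of S1 against PrL in water, 2 were called with VTA male water 3 kept, against 7; with that library kept, steps lost their call for Tac1 from VTA to PrL (adjusted p = 0.152), Cartpt from S1 to PrL (0.052), Crh from S1 to PrL (0.343) and PrL to NAc (0.201), Gal from NAc to S1 (0.058), and Adcyap1 from PrL to S1 (0.093) and S1 to NAc (0.293). The number of all genes called also moved between alternatives. In VTA males it was 5527 with reads outside exons as a covariate, against 4355 of 19822 in the main fit. Shares of all genes are not given for most of these alternatives, so the counts of precursors do not single them out.

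Signs turned with GC offsets, without and with the block, for Vgf in VTA males (0.15 and 0.17) and on average (0.042 and 0.050), Ntsr2 in males (0.075 and 0.064) and on average (0.072 and 0.066), Chga on average (0.025 and 0.036) and Thop1 in males (0.062 and 0.067). With VTA male water 3 kept, Ntsr2 was 0.059 in males and 0.013 on average. Trh in PrL was 0.43 in males and 1.51 on average with reads outside exons as a covariate, and 0.26 on average with olfactory bulb markers; Cartpt for sex in VTA was -0.12 with Edinger-Westphal markers. The cause was not tested.

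In the fentanyl libraries, differences between neighbouring regions turned for Tac1, VBT minus S1 (-0.95), Gal, VTA minus VBT (-0.13) and PrL minus NAc (-1.60), Trh, PrL minus NAc (-1.61), and Vgf, VTA minus VBT (-0.29) and VBT minus S1 (-0.22). With the replicate block, Gal and Trh, PrL minus NAc, were -0.0038 and -0.21, and Vgf, VTA minus VBT, was -0.0087, while Vgf, NAc minus VTA, gained a call (0.22, adjusted p = 0.048) and Adcyap1, S1 minus NAc, lost it (0.74, adjusted p = 0.071); Vgf, VTA minus VBT, was -0.0068 with DESeq2 size factors and by the Wald test, -0.0052 with no filter and -0.11 with VTA male water 3 kept. None of the differences whose sign turned was called in water; of those that turned in the fentanyl libraries, all but Gal, VTA minus VBT, were called (adjusted p = 1.48e-10 to 0.0483). Without the libraries of each replicate number in turn, the differences ran from -0.18 to 0.77 for Tac1, VBT minus S1, -0.10 to 1.10 for Cartpt, VTA minus NAc, -0.084 to 0.40 for Crh, NAc minus VTA, -1.35 to 0.89 for Gal, PrL minus NAc, -0.36 to 0.71 for Trh, PrL minus NAc and -0.053 to 0.071 for Vgf, VTA minus VBT.

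Genes called in all ran from 42 to 5527 in VTA males (4355), from 60 to 5817 in the VTA average (4580), from 30 to 645 in the S1 average (203), from 0 to 402 in S1 females (28), from 0 to 778 in the PrL average (133) and from 0 to 924 in NAc males (129); the lowest counts in VTA were with VTA male water 3 kept, in the S1 average without male water 4 and in NAc males without male water 3. PrL females had 0 to 46 (4). Where 0 genes were called, up to 139 were in VTA females, 31 and 52 in VBT females and males, 1 in the VBT average, 30 in S1 males, 28 in PrL males, 16 in NAc females and 285 in the NAc average. The difference between the sexes in the effect reached 7 in VTA, 109 in VBT and 462 in NAc, all by DESeq2. For sex, VTA had 8 to 31 (17), VBT 16 to 270 (25, the highest without female water 2), S1 11 to 36 (14) and NAc 13 to 60 (15). Same-numbered libraries within a region had a mean correlation of -0.071 to 0.013, so the numbers do not pair the libraries there. Between regions it was 0.033 to 0.071 over the 4 groups of sex and treatment, against -0.017 to -0.0088 for different numbers, with single same-numbered pairs down to -0.30; with the block NAc males had 2 calls and the S1 average 112. Gal in the cortex and NAc, Nts and Trh in S1, and Crh in VBT lie near the limit set by depth.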
